A study of Mus musculus with 4 samples.

Results

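The adhesion-type receptor tyrosine phosphatases are described here by the DNA methylation of their 7 genes in mouse embryonic stem cells. Ptprk, Ptprm, Ptprt and Ptpru are the 4 genes of the MAM-type subfamily, and Ptprd, Ptprf and Ptprs are the 3 genes of the LAR-type subfamily. Every deposited region listed under these names was taken, which gave 14 of the 55200 regions in the gene table (a promoter and a body for each gene) and 85 of the 80045 regions in the CpG island table (islands with the shores and shelves beside them). The list was drawn up with results of the netrin-1 comparison in view, in which a shore of Ptprt had passed the test of single features. The differences between the groups below are therefore descriptions, and no test of them is read as evidence about these genes.

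These proteins span the membrane once, with adhesion domains outside the cell and phosphatase domains inside it. MAM-type members such as Ptprk and Ptprm bind the same protein on a neighbouring cell and are found at cadherin contacts, where they remove phosphate from tyrosines. LAR-type members bind heparan sulfate proteoglycans and adhesion proteins of other cells, and are known from axon guidance and from the organisation of synapses. CpG islands at the starts of genes are commonly free of methylation in pluripotent cells, while the bodies of genes carry it.

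The assay was RRBS, or reduced representation bisulfite sequencing, in which DNA is cut by MspI at CCGG, short fragments are sequenced after bisulfite treatment, and unmethylated cytosines are read as converted. The 2 netrin-1 libraries came from CGR8 embryonic stem cells carrying, by stable transfection, the ppy-cagg-netrin-ires-puro vector, from which the netrin-1 transgene is expressed. The 2 control libraries came from CGR8 cells given the empty ppy-cagg-ires-puro vector in the same way. Netrin-1 is a secreted guidance protein. Both groups were grown in serum with LIF, and both carry the vector. The labels do not say whether replicates were separate transfections, clones or cultures, so the spread between them may be technical. A level is the percent of calls in a region that were methylated, and differences are netrin-1 minus control in percentage points. The gene table held 36269454 and 53293458 calls in the netrin-1 libraries and 31452170 and 41964981 calls in the controls. Of the promoters of 8 genes active in embryonic stem cells, those of Sox2, Klf4, Zfp42, Pou5f1 and Tdgf1 stood at or below 2.44% in every library, Esrrb ranged from 9.43% to 51.7% on 53 to 81 calls, and Nanog and Dppa5a had no calls. Expression was not measured.

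The promoters are shown first because most hold many CpGs and all 7 were nearly free of methylation. The 250 bases before the RefSeq start (GRCm38.p6) are given 5′ to 3′ on the gene's strand for Ptprt and Ptprs, whose promoters were lower in both netrin-1 libraries than in both controls, and for Ptprf, whose promoter was higher in both. Capitals mark each CpG, the dinucleotide at which methylation is read. All 3 lie within the deposited promoter regions, Ptprt at chr2:162661148-162661397, Ptprs at chr17:56476481-56476730 and Ptprf at chr4:118291398-118291647, each on the minus strand.
Ptprt: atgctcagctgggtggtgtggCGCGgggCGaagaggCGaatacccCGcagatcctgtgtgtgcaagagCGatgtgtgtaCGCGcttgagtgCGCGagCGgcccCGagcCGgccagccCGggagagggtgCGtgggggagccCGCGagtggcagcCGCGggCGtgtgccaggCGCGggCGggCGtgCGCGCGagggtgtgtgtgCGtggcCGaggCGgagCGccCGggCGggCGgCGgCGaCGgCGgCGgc
Ptprs: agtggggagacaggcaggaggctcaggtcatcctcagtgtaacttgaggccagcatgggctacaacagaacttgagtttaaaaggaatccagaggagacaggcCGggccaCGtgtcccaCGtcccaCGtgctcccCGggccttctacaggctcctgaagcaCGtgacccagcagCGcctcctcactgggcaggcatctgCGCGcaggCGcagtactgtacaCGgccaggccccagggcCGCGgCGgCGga
Ptprf: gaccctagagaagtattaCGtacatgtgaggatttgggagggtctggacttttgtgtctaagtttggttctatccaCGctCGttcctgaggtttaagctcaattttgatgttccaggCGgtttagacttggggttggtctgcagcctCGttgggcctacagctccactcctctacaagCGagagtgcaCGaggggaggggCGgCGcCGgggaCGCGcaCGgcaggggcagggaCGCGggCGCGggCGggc
The Ptprt stretch holds 39 CpGs and 3 CCGG sites, the Ptprs stretch 15 CpGs and 2 CCGG sites, and the Ptprf stretch 18 CpGs and 1 CCGG site. The reverse complement of either motif is the motif itself, and each CCGG contains a CpG. Promoters of 6 of the 7 genes were matched, Ptprd being the missing entry. Those of Ptprk, Ptprm and Ptpru held 38, 37 and 31 CpGs. Among 32841 RefSeq promoter stretches of the same length the median was 6 CpGs, and 47.1% held a CCGG.

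All 7 promoters (500 bp to either side of the start) are classed by the authors as CpG island promoters, and their levels lay between 0.0934% and 2.56% in the single libraries, on 398 to 2552 calls. Their mean was 1.18% ± 0.269 in netrin-1 and 1.08% ± 0.0466 in control (SD, n = 2), a difference of 0.100 points that is smaller than the SD of netrin-1. The difference was -0.0903 points without netrin-1 replicate 1 and 0.290 points without netrin-1 replicate 2. Over the 16091 promoters read at least 10 times in each library the means were 5.91% ± 0.196 in netrin-1 and 6.59% ± 0.0161 in control. By level the phosphatase promoters ranked from above 23.7% (Ptprm) to above 64.1% (Ptprs) of 13945 protein-coding promoters, whose median was 1.16%. Of the 7 promoters 2 were lower and 5 higher in netrin-1, and with each library centred on its promoters that of Ptprt also became higher. Over the 16091 promoters 9094 were lower and 6815 higher.

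In the Ptprs promoter the levels were 1.22% and 0.563% in netrin-1, against 1.94% and 2.46% in control. Ptprs, also called PTPσ, is the LAR-type receptor for chondroitin and heparan sulfate proteoglycans. The Ptprt promoter stood at 0.708% and 0.507% in netrin-1 and at 0.912% and 1.48% in control. The Ptprf promoter stood at 1.56% and 2.56% in netrin-1 and at 0.0934% and 1.35% in control. The groups of these 3 genes did not overlap, though the gaps between them were narrow. Islands at the starts of Ptprt and Ptprf, which share sequence with these promoters, overlapped between the groups, while that of Ptprs did not. Across all promoters the groups were apart with netrin-1 lower in 21% and with netrin-1 higher in 13.2%, so counts of 2 and 1 among 7 are near that background.

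The remaining promoters overlapped between the groups. Ptprk, a MAM-type gene whose human counterpart is fused to RSPO3 in some colon cancers, had the widest spread, at 2.56% and 0.347% in netrin-1 and 1.51% and 0.630% in control. Ptprm stood at 0.878% ± 0.0201 and 0.603% ± 0.419, Ptpru at 1.04% ± 0.253 and 0.802% ± 0.113, and Ptprd at 1.33% ± 0.145 and 0.967% ± 0.413, each given for netrin-1 and then control (SD, n = 2). No promoter of the 7 held enough methylated and unmethylated calls to enter the test of single features.

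**Figure D1:**
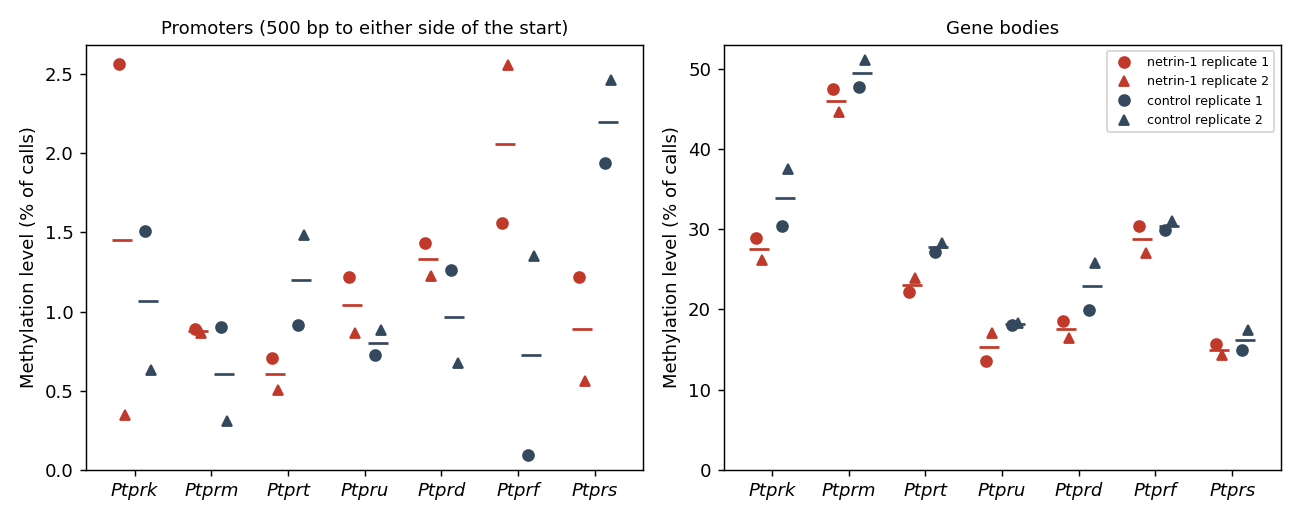
Methylation level (% of calls) of the promoter and the body of each gene, with 1 point per library and a bar for the mean of each group's 2 libraries, netrin-1 left of control. Promoters lie between 0.0934% and 2.56%, and each of the 7 bodies has a lower mean in netrin-1 (those of Ptprf and Ptprs a higher one once libraries are centred on all bodies).

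The bodies of the genes were methylated to very different degrees and had a lower mean in netrin-1 in all 7 genes, though those of Ptprf and Ptprs were higher once each library was centred on all bodies. The mean over the 7 bodies was 24.7% ± 0.717 in netrin-1 and 28.4% ± 2.14 in control (SD, n = 2), a difference of -3.67 points, or -2.16 points without control replicate 2. Over 18839 bodies the difference was -2.13 points, and 13244 of them were lower in netrin-1. In 5 of the 7 members both netrin-1 libraries lay below both controls, against 33.7% of all bodies, and in 0 both lay above, against 7.59%. The quasi-binomial test called 0 of the 7 bodies, with 3 at an unadjusted p under 0.05, against 0.00581% of gene features called and 12.8% at an unadjusted p under 0.05. With limma, on percentage points or M values, 0 of the 17209 gene features were called, and 0 of the 7 bodies had an unadjusted p under 0.05. Without netrin-1 replicate 1 the quasi-binomial test called 445 of 17478 gene features, among them the bodies of Ptprd and Ptprk.

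Ptprm, the MAM-type gene whose product joins like cells through its own extracellular part, had the most methylated body, at 47.5% and 44.7% in netrin-1 and 47.8% and 51.2% in control. This mean level is above that of 89.4% of 16404 protein-coding bodies. Ptprk followed, at 28.9% and 26.2% in netrin-1 and 30.4% and 37.5% in control, and it had the greatest difference in points among the bodies, at -6.44. Its difference was -2.91 points without control replicate 2, and that of Ptprd likewise -2.45 points in place of -5.34. Ptprf, the gene of the LAR protein itself, stood at 30.5% and 27.1% in netrin-1 and at 29.9% and 31.1% in control, with overlapping groups.

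Ptprt, expressed in brain and with a human counterpart often mutated in colorectal cancer, stood at 22.2% and 23.9% in netrin-1 and at 27.1% and 28.3% in control. Here the replicates were close and the gap between the groups wider than either spread. The Ptprt body's difference of -4.71 points was -2.58 points with each library centred on all bodies. Ptprd, a synaptic LAR-type gene and the longest of the set at 2270723 bp, stood at 18.6% and 16.5% in netrin-1 and at 19.97% and 25.8% in control. Ptpru stood at 13.5% and 17.0% in netrin-1 and at 18.1% and 18.3% in control. The least methylated body was that of Ptprs, at 15.6% and 14.3% in netrin-1 and 15.0% and 17.4% in control, again with overlapping groups. By mean level the order was Ptprm, Ptprk, Ptprf, Ptprt, Ptprd, Ptpru and Ptprs, in which Ptprm stood clear of the rest and each of the others overlapped its neighbour over the 4 libraries. Grouped by subfamily, the 4 MAM-type bodies averaged 28.0% ± 0.0557 in netrin-1 and 32.3% ± 2.08 in control, and the 3 LAR-type bodies 20.4% ± 1.60 and 23.2% ± 2.21 (SD, n = 2). The difference between the subfamilies was not tested.

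A body mixes open sequence with the islands, shores and shelves that lie in it, in shares that differ greatly between these genes. In Ptprs such regions held 60.9% to 69.2% of the body's calls, and in Ptprt a single shore held 36.3% to 39.7%. In Ptprk no such region with calls lay wholly inside the body. With those calls taken out, the Ptprs body stood at 25.2% ± 3.49 in netrin-1 and 28.0% ± 0.773 in control, against 15.0% ± 0.919 and 16.2% ± 1.72 with them (SD, n = 2). The Ptprt body then stood at 35.6% ± 1.37 in netrin-1 and 38.8% ± 1.93 in control (SD, n = 2), and its difference was -3.17 points, against -4.71 points with the shore. In Ptprd the difference was -6.28 points without these regions. The bodies of Ptprt, Ptpru and Ptprd were still apart between the groups. Those of Ptprk and Ptprm were too, but nothing was taken from Ptprk and at most 1.45% of calls from Ptprm. Regions lying only partly inside a body, such as the shore at the Ptprk start, kept their calls.

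Of the 85 CpG island regions, 49 reached the minimum of 10 calls per library, namely 13 of 17 islands, 23 of 34 shores (the 2000 bp next to an island) and 13 of 34 shelves (the 2000 bp beyond). No calls at all fell on 4 islands, 8 shores and 20 shelves. Ptprs alone supplied 35 of the 85 regions, and 5 of its regions repeat calls of another, since its 7 islands lie close together. Methylation was graded from islands to shelves. The 13 islands averaged 1.58% ± 0.217 in netrin-1 and 2.52% ± 0.532 in control, the 23 shores 13.01% ± 1.10 and 14.2% ± 0.0765, and the 13 shelves 28.3% ± 0.999 and 29.8% ± 0.251 (SD, n = 2). The differences were -0.938, -1.19 and -1.50 points, against -0.347, -1.14 and -2.02 points over all islands, shores and shelves. The 7 islands at starts differed by -0.155 points, the same as all islands at starts (-0.155 points). The 6 islands inside genes differed by -1.85 points, against -0.842 points over all such islands. The widest falls among these 6 were in Ptprs, from chr17:56428816 (-5.60 points) and from chr17:56473927 (-3.75 points). With calls pooled over the members' regions the differences of islands, shores and shelves were -0.334, -2.93 and -2.97 points. With the median of each library they were -0.388, -3.80 and -0.116 points. The median of the differences of single regions was -0.198, -0.392 and 0.00935 points, against -0.0878, -0.505 and -1.24 points over all genes. The values thus depend on how regions are weighted. The shore difference was -0.410 points without netrin-1 replicate 1 and -1.97 points without netrin-1 replicate 2. The island difference was -0.561 points without control replicate 2, and the shelf difference -0.794 points without netrin-1 replicate 2.

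Both netrin-1 libraries lay below both controls in 3 of the 13 islands, 9 of the 23 shores and 4 of the 13 shelves, where all islands gave 20.1%, all shores 23.9% and all shelves 28%. The opposite order was seen in 1 island, 3 shores and 1 shelf, where the background was 13.7%, 9.96% and 10.1%. The 3 lower islands are all of Ptprs. In that gene the lower shelf from chr17:56427906 and shore from chr17:56428174 hold the same calls, and the lower island from chr17:56428816 lies in that shore. The higher shore from chr17:56420766 and shelf from chr17:56421028 also hold the same calls. The regions counted, tested ones included, are therefore not all separate observations. Of the 49 regions 18 were informative enough for the test of single features. That test called 1 of them, against 0.186% of all tested regions. The called region was lower in netrin-1, where 0.118% of all tested regions were called lower and 0.0677% higher. At an unadjusted p under 0.05 there were 2 of 18, against 12.1%. The 1 call is the Ptprt shore through which the list came about, so nothing is read from this count.

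**Figure D2:**
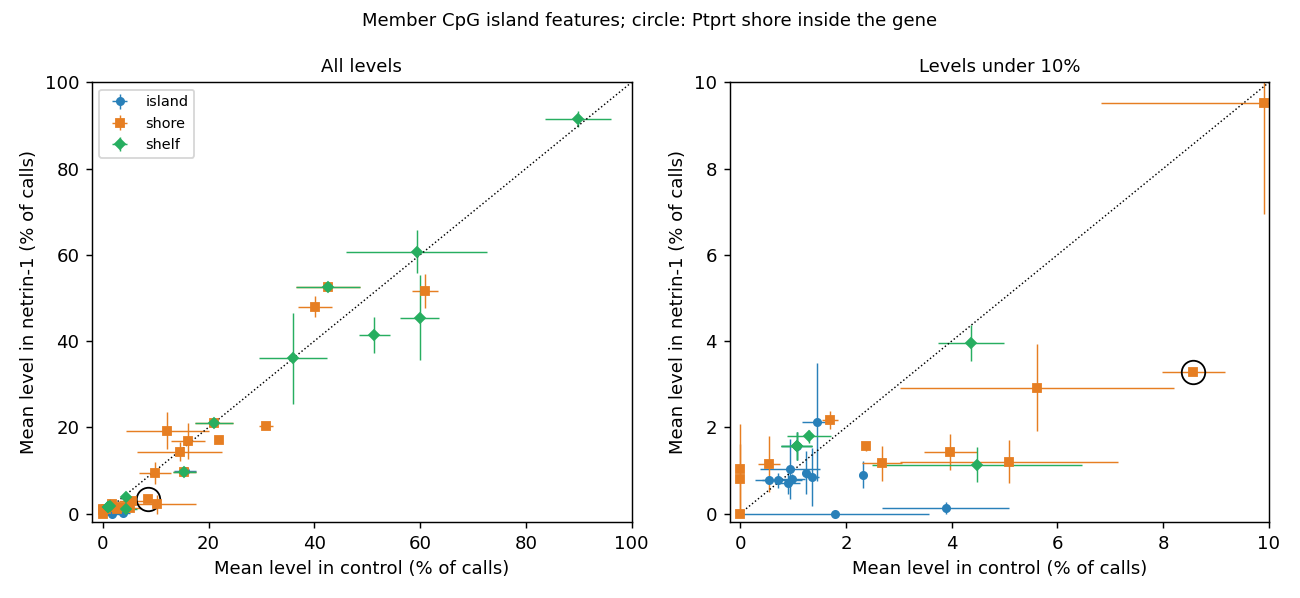
Mean level in control (horizontal, % of calls) against mean level in netrin-1 (vertical, % of calls) for the 49 CpG island regions read at least 10 times in each library, at all levels on the left and under 10% on the right. Error bars run between the 2 libraries of a group, the dotted line marks equal levels, and the circled Ptprt shore lies at 8.57% in control and 3.29% in netrin-1.

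The Ptprt shore lies inside the gene, 718 to 2717 bp downstream of the start (chr2:162658430-162660429), and borders the island at the start whose promoter stretch is printed above. Its level was 3.25% and 3.33% in netrin-1, against 9.16% and 7.97% in control. The 95% Wilson intervals, which cover counting error only, were 2.73% to 3.87% and 2.88% to 3.85% in netrin-1 and 8.18% to 10.3% and 7.19% to 8.83% in control. The groups were apart by more than the spread of their 2 libraries, at 3.29% ± 0.0530 and 8.57% ± 0.845 (SD, n = 2), a difference of -5.28 points and a ratio of 0.384. With each library centred on its shores the difference was -4.14 points. The quasi-binomial test called the shore (adjusted p = 0.000909), but not when dispersion was estimated for each region alone (adjusted p = 0.824). By limma the adjusted p was 0.407 on percentage points and 0.388 on M values.

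This shore was read far more deeply than others. It held 3780 and 5257 calls in netrin-1 and 2968 and 4216 calls in control, on 70 to 76 positions. That is 49.7 and 71.0 calls per position in netrin-1 and 41.2 and 60.2 in control, against 14.6, 21.0, 13.1 and 16.5 over the whole table in the same order of libraries. Scaled to the table totals its coverage in netrin-1 was 1.03 times that in control, so depth was high in both groups alike. Whether the depth plays a part in the level was not tested. Of 12624 shores of islands at starts, 0.0634% had more calls and 1470 had a more negative difference in points. Among the 991 with a mean of at least 1000 calls, 29 had a more negative difference. The list came about through the fall of this shore, so nothing is read from its rank.

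The island next to the Ptprt shore did not separate the groups. The island (chr2:162660430-162661436) stood at 0.944% and 0.458% in netrin-1 and at 0.668% and 1.13% in control, with overlapping groups on 1271 to 1745 calls. The shore upstream of the start had 15 to 48 calls and 0 methylated ones in control, which allows up to 6.52% over its 46 control calls. Farther out, the 100 kb window that holds the start (chr2:162600001-162700000) stood at 34.1% and 32.6% in netrin-1 and at 45.4% and 44.0% in control, a difference of -11.3 points. With 593 to 945 calls it held fewer than the shore alone, so most of the shore's calls are not in the window table. The test of single windows did not call it.

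**Figure D3:**
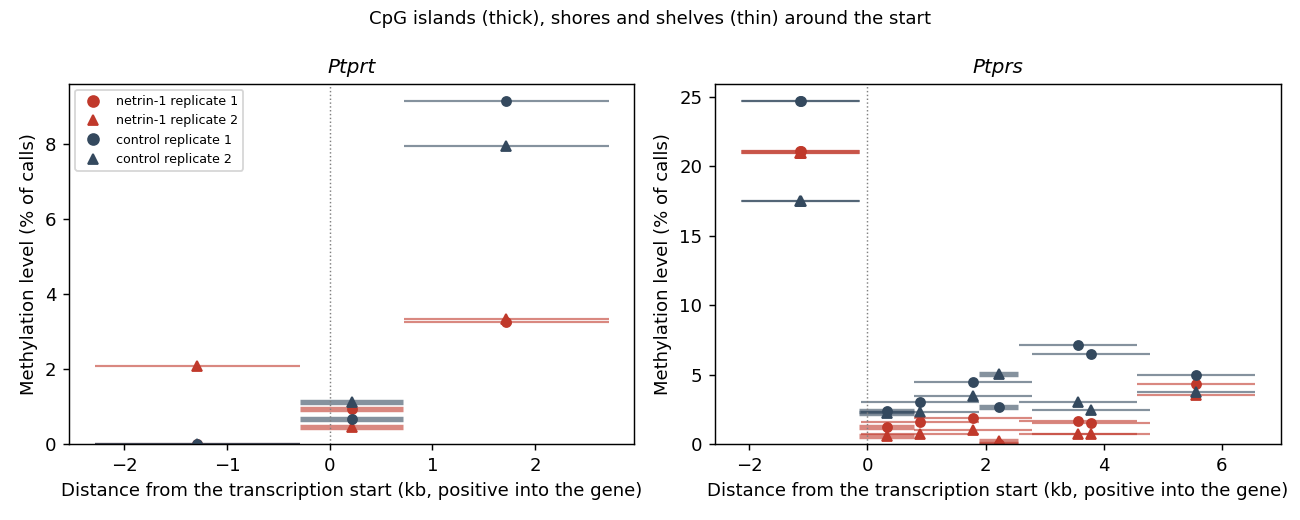
Methylation level (% of calls) of islands (thick bars), shores and shelves (thin bars) against the distance from the transcription start (kb) for Ptprt and Ptprs, with bars as wide as the region and 1 symbol per library. In Ptprt the groups part in the shore inside the gene (3.25% and 3.33% in netrin-1, 9.16% and 7.97% in control), and in Ptprs both netrin-1 libraries lie below both controls in the regions lying between the start and 4790 bp downstream, but not in the shelf that runs on from 4557 bp.

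The levels of 3 shores outside the set were most like those of the Ptprt shore over the 4 libraries, out of 19278 compared by their root mean square difference. They belong to Tmco1 (0.295 points), Trmt1 (0.321 points) and Cldn5 (0.458 points), genes of a membrane calcium channel, a tRNA methyltransferase and a tight junction protein. Their calls per library ran from 133 to 1169, fewer than in Ptprt. The Cldn5 shore, for example, stood at 2.78% ± 0.583 in netrin-1 and 8.45% ± 0.725 in control (SD, n = 2). All 3 were picked by their levels, so the distance between their groups follows from that choice.

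In Ptprs each region with calls between the start and 4790 bp downstream had lower levels in both netrin-1 libraries than in both controls, while the groups overlapped in the shelf 4557 to 6556 bp downstream. The island at the start (chr17:56475693-56476627) stood at 1.21% and 0.594% in netrin-1 and at 2.38% and 2.25% in control. Its shore inside the gene (chr17:56473693-56475692) stood at 1.85% and 1.01% in netrin-1 and at 4.48% and 3.48% in control. The levels were low in both regions, and the netrin-1 libraries lay below the controls. The next island (chr17:56473927-56474601) lies within that shore and stood at 0% and 0.267% in netrin-1 and at 2.68% and 5.08% in control, on 210 to 413 calls. Beyond it a shore (chr17:56471927-56473926) stood at 1.70% and 0.709% in netrin-1 and at 7.14% and 3.03% in control. These regions overlap in sequence and share reads, so they are not separate observations. The stretch upstream of the start did not differ in this way, at 21.0% ± 0.0873 in netrin-1 and 21.1% ± 5.09 in control (SD, n = 2).

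Toward the 3′ part of Ptprs the picture was mixed. The region with the greatest difference in the gene was higher in netrin-1, a shore (chr17:56420766-56422765) at 52.8% and 52.5% in netrin-1 and 48.6% and 36.6% in control. Its difference of 10.05 points was 4.003 points without control replicate 2. An island 47286 to 47667 bp into the gene (chr17:56428816-56429197) was lower, at 10.8% and 8.93% in netrin-1 and at 13.4% and 17.6% in control. A further island, 50578 to 51455 bp in, held almost no methylation, at 1.56% ± 0.458 in netrin-1 and 1.07% ± 0.408 in control (SD, n = 2).

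Ptpru, a MAM-type gene whose product interacts with β-catenin, had its greatest difference in a shore 16610 to 18609 bp into the gene (chr4:131819679-131821678). The shore stood at 19.9% and 20.8% in netrin-1 and at 32.2% and 29.5% in control, on 146 to 332 calls. The groups were 8.75 points apart there. The Ptpru island at the start, with 2130 to 4506 calls, stood at 0.801% ± 0.154 in netrin-1 and 0.980% ± 0.341 in control and overlapped (SD, n = 2).

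In Ptprf the greatest difference was in a shelf near the 3′ end (chr4:118214248-118216247), at 35.6% and 55.3% in netrin-1 and at 63.6% and 56.2% in control. The netrin-1 libraries disagreed widely there, on 55 to 179 calls, and without netrin-1 replicate 1 the difference was -4.64 points in place of -14.5. The shelf 2950 to 4949 bp into the gene (chr4:118286456-118288455) stood at 45.5% and 37.3% in netrin-1 and at 54.4% and 48.4% in control. The shores on either side of an island near the 3′ end parted in opposite directions, on 42 to 117 calls. The one toward the start (chr4:118212248-118214247) stood at 45.6% and 50.4% in netrin-1 and at 36.9% and 43.4% in control. The one away from it (chr4:118210043-118212042) stood at 47.6% and 55.6% in netrin-1 and at 58.4% and 63.3% in control. The Ptprf upstream shore spread from 6.53% to 22.6% between the controls alone. At the Ptprf island at the start (chr4:118290456-118291235) levels were 0.449% and 1.44% in netrin-1 and 1.24% and 1.26% in control, with overlapping groups.

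In the other members the differences near the start were small or within the spread. The Ptprk island at the start stood at 1.73% and 0.347% in netrin-1 and at 1.52% and 0.381% in control, with overlapping groups. In Ptprk, the shore inside the gene stood at 2.39% and 1.95% in netrin-1 and at 1.55% and 1.85% in control, higher by 0.470 points, or by 0.252 points without netrin-1 replicate 1 and 1.61 points with each library centred on its shores. The Ptprm island stood at 0.770% and 0.800% in netrin-1 and at 0.673% and 0.422% in control, and its shore inside the gene at 2.92% ± 1.41 and 5.61% ± 3.65 (SD, n = 2). Ptprd carries a second island 1761425 to 1762617 bp into the gene (chr4:76449344-76450536). This island stood at 0.771% ± 0.245 in netrin-1 and 0.723% ± 0.633 in control on 2011 to 3178 calls. The island at the start stood at 2.13% ± 1.94 in netrin-1 and 1.45% ± 0.387 in control (SD, n = 2). The shore beside the second island (chr4:76450537-76452536) stood at 0% and 4.26% in netrin-1 and at 2.86% and 17.6% in control, on only 20 to 70 calls, and its difference was -0.729 points without control replicate 2 in place of -8.12.

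Windows of 100 kb lying wholly inside a body were used to follow the 4 longest genes along their length. Of 42 such windows 37 reached 10 calls per library, and they averaged 33.5% ± 0.474 in netrin-1 and 38.2% ± 2.92 in control (SD, n = 2). The difference was -4.73 points, or -2.67 points without control replicate 2, against -3.89 points over 25528 windows. Of the 37, 29 were lower and 8 higher in netrin-1, where 20665 of the 25528 were lower and 4856 higher. The groups were apart with netrin-1 lower in 21 of them, where all windows gave 47.1%, and with netrin-1 higher in 1, where all windows gave 4.4%. The test called 1 of 31 tested windows, lower in netrin-1, against 2.22% of all windows, or 2.2% called lower and 0.0211% called higher. At an unadjusted p under 0.05 there were 10 of 31, against 22.2%. Window levels leave out most calls of some CpG island regions, so they do not cover the whole sequence of a body. The Ptprd window from chr4:76400001, for example, held at most 3 calls per library, while the island inside it (chr4:76449344-76450536) held 2011 to 3178.

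By gene, the windows of Ptprd averaged 27.8% ± 1.14 in netrin-1 and 33.0% ± 3.71 in control, and those of Ptprt 36.8% ± 0.901 and 41.3% ± 2.90 (SD, n = 2). Those of Ptprm averaged 43.7% ± 1.74 in netrin-1 and 48.9% ± 0.0535 in control, and those of Ptprk 33.7% ± 0.118 and 36.5% ± 4.04. The high level of the Ptprm body was thus seen in its windows too. The greatest fall was in a window of Ptprd centred 461.96 kb into the gene (chr4:77700001-77800000), at 16.8% and 14.0% in netrin-1 and 39.1% and 40.7% in control, which was also the 1 window called. It held 202 to 350 calls, on 16 and 19 positions in netrin-1 and 13 and 23 in control. The libraries thus did not all cover the same positions. The greatest positive difference was in another window of Ptprd (chr4:76100001-76200000), at 35.0% and 28.8% in netrin-1 and 12.3% and 33.0% in control, with overlapping groups and as few as 52 calls.

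**Figure D4:**
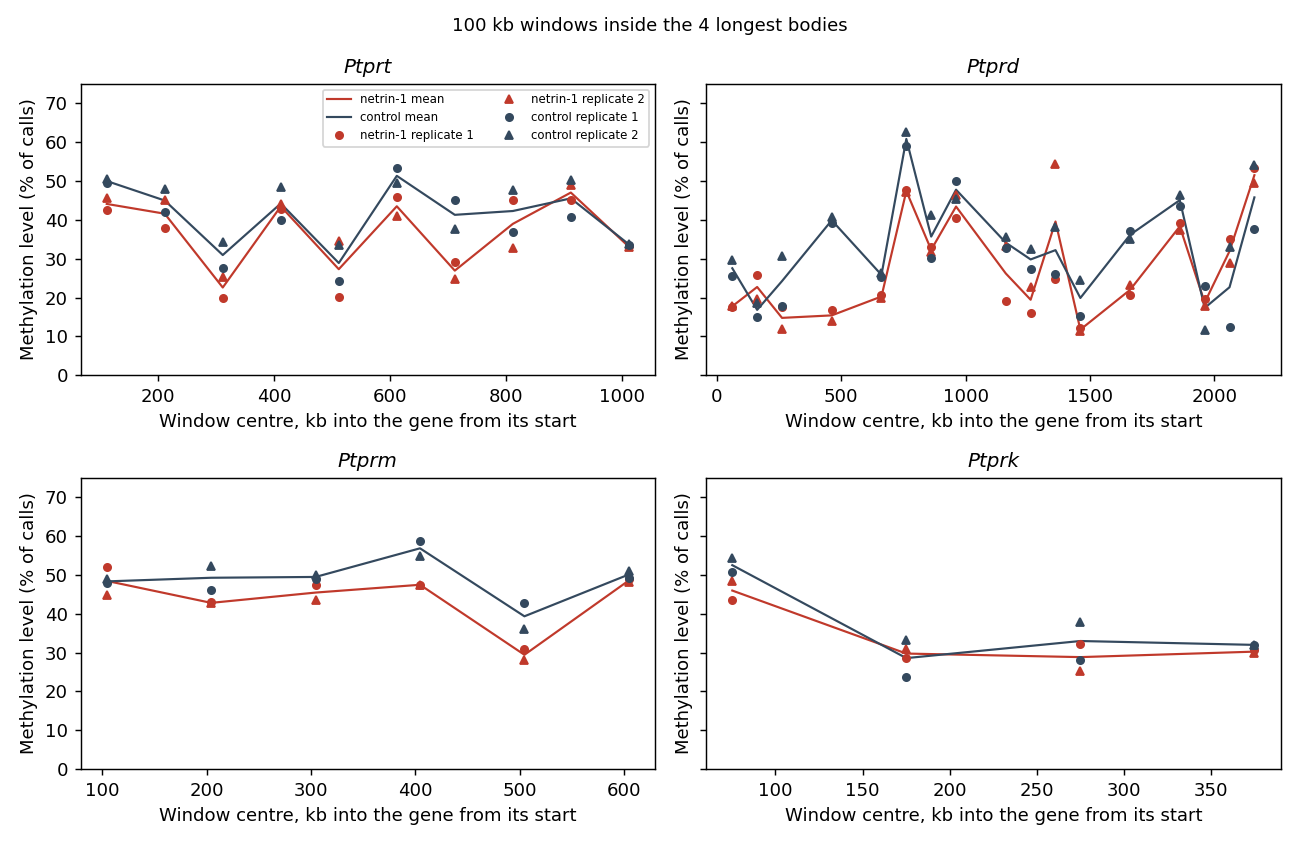
Methylation level (% of calls) of 100 kb windows against the distance of the window's centre from the transcription start (kb) in Ptprt, Ptprd, Ptprm and Ptprk, with 1 symbol per library and a line through each group's mean. Control lies above netrin-1 in most windows, and the widest gap is in Ptprd, where a window stands at 16.8% and 14.0% in netrin-1 and 39.1% and 40.7% in control.

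Depth on the whole bodies was similar in both groups, while depth on single windows varied more. Scaled to the table totals, the calls on the bodies in netrin-1 were 0.880 (Ptprd) to 1.06 (Ptprm) times those in control. Among bodies with at least 1000 calls in every library the Ptprd ratio was higher than 14.5% of the others, and whether coverage plays a part in its level was not tested. Scaled to the window totals, Ptprd windows with at least 10 calls per library ran from 0.497 (from chr4:77400001) to 1.35 (from chr4:77200001). The called window stood at 0.854 and the window with the greatest positive difference at 0.600, and a part of coverage in their levels was not tested either.

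Related genes were counted beside the set. Of 13 bodies of other receptor-type phosphatase genes 11 were lower and 2 higher in netrin-1, with a median difference of -3.61 points against -3.42 points in the members and -1.74 points over all bodies. The quasi-binomial test called 0 of these 13, with 4 at an unadjusted p under 0.05. The greatest difference among them was in Ptprq, a gene of the inner ear, at 32.5% ± 3.79 in netrin-1 and 45.3% ± 2.49 in control (SD, n = 2). Among partners of the LAR-type receptors, such as the Slitrk synaptic adhesion genes and the liprin-α genes, 17 of 19 bodies were lower, with a median of -2.72 points, and 0 of 17 tested were called, with 3 at an unadjusted p under 0.05. Slitrk2, with the greatest difference there, stood at 6.89% ± 2.83 in netrin-1 and 21.4% ± 12.9 in control (SD, n = 2). Among cadherin and catenin genes 4 of 7 bodies were lower, with a median of -1.67 points, and 0 of 7 were called, with 0 at an unadjusted p under 0.05.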

How the data were processed

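RRBS libraries of 2 netrin-1 and 2 control samples were grouped by their titles. Builds mm10 and GRCm38 and FastQC are named per the submitters' processing notes. Aligner, methylation caller and filters were not given in the sources used here. Per the file headers, the authors deposited for each region the counts of covered positions, total calls and methylated calls, and the level as a fraction, recomputed here as a percent.

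Regions with 10 or more calls in each library were described by mean and SD. All regions of a table were tested together with a quasi-binomial logistic model whose dispersion was moderated with limma 3.58.1 in R 4.3.3 (trend on coverage, robust, floor of 1). It was run on simulated data whose dispersion came from the same fit, which cannot show whether the moderation is right for 2 libraries per group. Tested regions needed an information minimum of 25 per library (calls × level × (1 - level), level as a fraction), and calls used a Benjamini-Hochberg threshold of 0.05. The members, lists and settings were chosen with earlier results of these data known. The rule for naming took each member's promoter, body and islands at the start, called regions, the region of greatest difference per member, the windows of greatest difference in either direction, and 3 shores most like a called Ptprt shore. Other regions of the members were chosen after their values were seen. An exact permutation test of 2 libraries against 2 cannot go below p = 0.333, so none was used. Reads are not independent molecules, so intervals and limits at 0 cover counting error only.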

Additional observations from a re-analysis of the deposited data

How the results depend on the processing

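The count of 1 called CpG island region among the members was 0 without moderation (0 of all 11815 tested regions), with 1 member at an unadjusted p under 0.05, and 0 by limma on percentage points or M values (0 and 2 of all 11815), with 2 members at an unadjusted p under 0.05 on each. It was 1 (range 1 to 1) when each library was left out, where 22 to 67 regions were called in all. Such a fit leaves a single library in 1 group, which is assumed to vary like the other group. The count of 0 called gene regions ranged from 0 to 2 when each library was left out, the 2 being the bodies of Ptprd and Ptprk without netrin-1 replicate 1, where 445 of 17478 gene regions were called. With the replicate number as a block it was 1, the body of Ptprd, among 299 of 17209 gene regions called. The numbers pair no libraries in the labels, and the correlation of same-numbered deviations was 0.00845 over gene regions. The block changed no call among the members' CpG island regions, and windows were not refitted with it.

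With calls pooled over regions the mean difference was -0.334 points for islands, -2.93 for shores and -2.97 for shelves, and with the median of each library it was -0.388, -3.80 and -0.116 points. The shore difference was -2.35 points with at least 1 call. Leaving out each library gave -0.0903 to 0.290 points for promoters, -5.18 to -2.16 for bodies, -1.31 to -0.561 for islands, -1.97 to -0.410 for shores, -2.21 to -0.794 for shelves and -6.79 to -2.67 for windows. Counting regions with the same calls once, chosen after seeing the data, gave -1.67 points for shelves. Of the 28 differences of named regions, 6 changed sign when libraries were centred on their class, among them the bodies of Ptprf and Ptprs, and 1 to 5 when a library was left out. Centring moved 15 of the 28 by more than their spread between replicates, among them the Ptprt body and the Ptprt shore inside the gene. Regions with fewer than 100 calls, such as several Ptprf shores, limit what depth can show.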
